A study of Mus musculus with 12 samples.

Results

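The replication-dependent histone genes are the genes that make the bulk histones of new chromatin during DNA synthesis. They were taken as every gene of the deposited values whose symbol belongs to the numbered H1, H2A, H2B, H3 and H4 cluster genes, which gave 63 of 40840 genes. These are 5 linker histone genes (H1), 17 H2A genes, 17 H2B genes, 12 H3 genes and 12 H4 genes. The rule used the symbols alone and no measured value. The study enriched immune cells from livers of WT and Casp11-/- mice on a high-fat diet (HFD) or normal chow (NCD) and sequenced their total RNA, to ask how diet and loss of caspase-11 shape the liver transcriptome in fatty liver disease.

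Each new chromatin fibre needs histones in step with new DNA, and cells make them in S phase from genes that lie in a few clusters. The octamer of H2A, H2B, H3 and H4 winds the DNA, and H1 seals it where it enters and leaves. The mRNAs of these genes as a rule carry no poly(A) tail and end in a short stem-loop that the protein Slbp binds, so methods that select poly(A) RNA miss most of them, whereas random-primed total RNA does not. Replacement histones such as H3f3a are made outside S phase from separate genes. In a tissue, dividing cells, blood cell precursors among them, are the known source of such transcripts.

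The mice were male. WT mice were C57BL/6J, and the mice labelled Casp11-/- lack, by that label, the gene now named Casp4. At 8 to 10 weeks of age they stayed on NCD or were moved to HFD for 12 weeks. Each genotype and diet had 3 libraries. WT-NCD replicate 3 was left out, because 39677 genes lay above the floor of the files in it, against 12940 to 18775 in the other 11 libraries. All 63 histone genes lay between 4.99 and 35.5 TPM in that library, against about 1 to 709 TPM in the others. The analysis therefore covered 11 libraries, with n = 2 for WT-NCD and n = 3 for each other group. TPM is a level per transcript length that is set against a fixed total per library, and no read counts are given. The study states a nominal number of reads per sample, but the depth behind each value is unknown. Nothing states that the numbered libraries were more than separate samples of a group, so the p-values measure the spread between these samples.

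Casp4 was 12.1 and 15.6 TPM in the WT-NCD libraries. The WT-HFD libraries had 7.09, 5.6 and 11.4 TPM. It was 4.93, 2.56 and 15.2 TPM in the libraries labelled Casp11-/- NCD and 2.78, 8.68 and 4.73 TPM in those labelled Casp11-/- HFD. The library labelled Casp11-/- NCD replicate 3 and the library labelled Casp11-/- HFD replicate 2 thus lay within the range of WT. The summed and class folds, the calls of each comparison and the members' median changes are also given below without these libraries. The values cover the whole gene, and whether they come from its deleted part cannot be read from them.

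The mRNA 3′ end is the feature that sets these genes apart, so its stem-loop is shown first. It was searched in the GENCODE vM21 transcripts (GRCm38) of the 61 members that could be placed there, and was found in 39, in 6 forms. The 4 bases of the loop are in capitals, and the 6 bases on either side pair with each other.
Form in 23 members, among them H1f2, H1f3, H1f4, H2ac11, H2bc11 and H2bc8: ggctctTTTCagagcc
Form in 6 members, all H4 (H4c17, H4c18, H4c3, H4c4, H4c6 and H4c8): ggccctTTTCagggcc
Form in 5 members (H2bc12, H2bc3, H3c3, H3c6 and H3c7): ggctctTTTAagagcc
Form in H4c14 and H4c9: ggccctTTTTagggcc
Form in H4c11 and H4c2: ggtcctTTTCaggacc
Form in H2ac20: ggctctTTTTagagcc
The stems of the 10 H4 genes found here differ from those of the other classes. Many of the transcript models without a match stop near the end of the coding sequence, so no match says only that these letters are not in the model.

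The promoters are shown next, because the members moved together. RefSeq promoters (GRCm38.p6) were found for 57 members, in 58 entries, and the 250 bases before the start were searched for 4 motifs. These were the TATA box TATAAA on the gene's strand, and on both strands the CCAAT box CCAAT, the octamer ATTTGCAT and the box AAACACA known from H1 genes (H1 AC box). No match overlapped a match of another motif. The CCAAT box was in 48 of the 58 promoters, against 33.8% of all 32851 promoters of the same length. The TATA box was in 23 of the 58, against 7.59% of all promoters. Its letters counted at any position in the 250 bases, near the start or far from it. The octamer was in 13 of the 58, against 1.60%, and all 13 were promoters of H2A genes (6 of 17) or H2B genes (7 of 15). Some H2A and H2B genes lie head to head, so a match on either strand of the stretch they share counted for both. The 250 bases could also reach into the neighbour's gene. The H1 AC box was in 4 of the 5 H1 promoters, against 6.25% of all promoters. H4 promoters differed from the other classes, with a CCAAT box in 3 of 11. A match describes the letters and is not a binding site.

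Promoters of 5 members are printed 5′ to 3′ on the gene's strand, ending at the base before the start, with motif matches in capitals and bases of a neighbouring histone gene left out. H1f3 and H2bc8 show the class motifs, H3c11 and H4c17 stand for the H3 and H4 genes, and the stretch of H2bc11 is also that of H2ac11, an H2A gene read from the other strand.
H1f3, chr13:23554782-23555031, plus strand: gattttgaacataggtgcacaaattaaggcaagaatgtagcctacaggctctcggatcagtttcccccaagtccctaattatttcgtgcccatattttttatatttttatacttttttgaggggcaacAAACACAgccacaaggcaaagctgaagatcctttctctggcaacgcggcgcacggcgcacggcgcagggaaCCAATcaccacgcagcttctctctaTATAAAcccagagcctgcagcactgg
H2bc8, chr13:23571221-23571399, plus strand: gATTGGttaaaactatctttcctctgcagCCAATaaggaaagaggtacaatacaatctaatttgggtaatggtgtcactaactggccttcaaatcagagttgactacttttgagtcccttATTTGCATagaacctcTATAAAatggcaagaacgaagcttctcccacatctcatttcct
H2bc11, chr13:22042950-22043197, plus strand: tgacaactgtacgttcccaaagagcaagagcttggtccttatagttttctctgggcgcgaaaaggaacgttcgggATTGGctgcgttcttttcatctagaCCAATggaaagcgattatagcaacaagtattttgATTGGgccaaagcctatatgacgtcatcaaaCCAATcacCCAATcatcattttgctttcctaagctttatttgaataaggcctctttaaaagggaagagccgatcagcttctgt
H3c11, chr13:21783398-21783647, minus strand: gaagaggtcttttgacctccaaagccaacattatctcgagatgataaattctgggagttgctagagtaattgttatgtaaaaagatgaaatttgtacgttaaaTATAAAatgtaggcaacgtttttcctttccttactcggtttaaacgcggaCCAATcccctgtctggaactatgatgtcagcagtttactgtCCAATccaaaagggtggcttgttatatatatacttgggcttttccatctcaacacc
H4c17, chr13:21811496-21811745, plus strand: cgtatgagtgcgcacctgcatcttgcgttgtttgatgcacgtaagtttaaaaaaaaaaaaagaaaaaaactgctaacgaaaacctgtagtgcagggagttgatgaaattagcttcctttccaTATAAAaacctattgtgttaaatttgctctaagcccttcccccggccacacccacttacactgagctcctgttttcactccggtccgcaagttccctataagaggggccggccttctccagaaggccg
The plot of motif shares sets the classes beside all promoters.

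**Figure D1:**
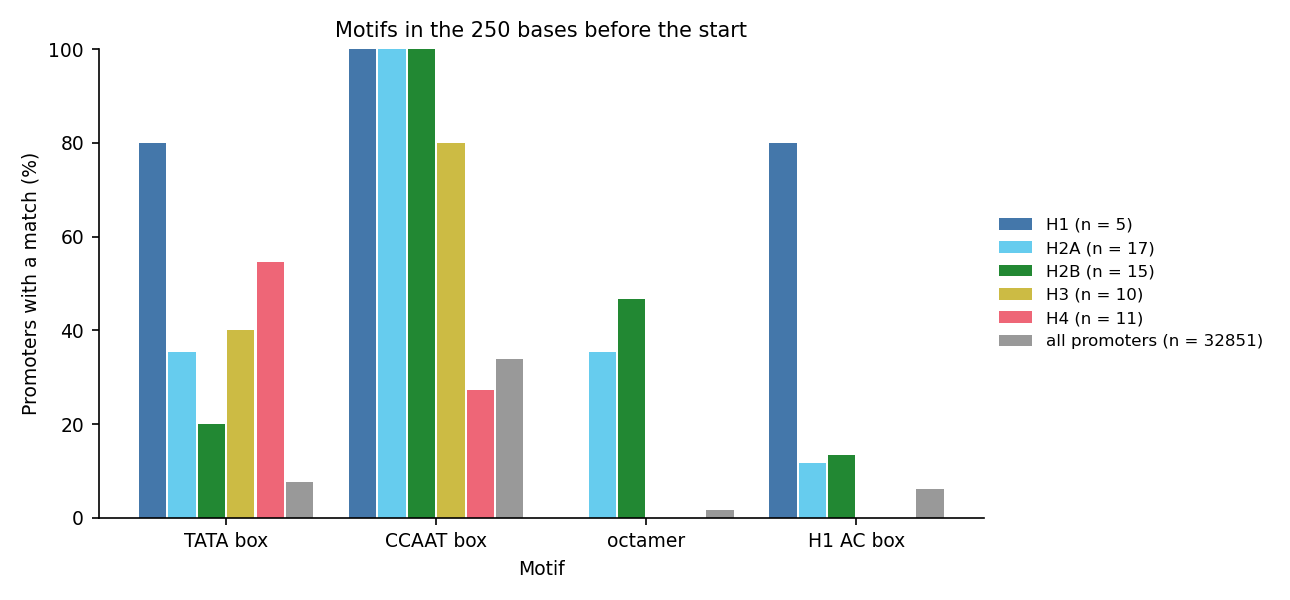
Share of promoters (y axis, %) with a match to each of 4 motifs (x axis) in the 250 bases before the start, by histone class and for all 32851 RefSeq promoters. Among the classes, octamer bars stand only over H2A (35.3%) and H2B (46.7%) beside 1.60% of all promoters, and the H4 bar for the CCAAT box (27.3%) is below that of the other classes.

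Many members are near-identical copies. A read of 75 bases, the length the study used, falls in no other gene for all windows of H1f1, H1f5, H2ac1, H2bc21 and H4c14, but for 0% of the windows of H2ac19 and 6.53% of those of H3c10. The median over the 61 members placed was 57.6%. The windows cover the whole GENCODE models, and some of these run far past the stem-loop, by 4884 bases in H1f3, 1257 in H4c14 and 840 in H1f2. Their shares thus include bases beyond the usual end of a histone mRNA. How the authors divided shared reads among copies is not given in the sources used here, so the level of a single gene with a low share is uncertain, whereas the sum over a class is less affected.

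Summed histone transcripts were lower on HFD than on NCD in both genotypes. The summed TPM of the 63 genes was 5044 and 7959 in WT-NCD and 1195, 510.1 and 1826 in WT-HFD. It was 5571, 2006 and 2954 in the libraries labelled Casp11-/- NCD and 787.4, 1082 and 1382 in those labelled Casp11-/- HFD. All 6 HFD libraries lay below all 5 NCD libraries. The mean was 6502 ± 2061 (SD, n = 2) in WT-NCD and 1177 ± 658 (SD, n = 3) in WT-HFD, a 5.52-fold lower level. In the labelled Casp11-/- groups it was 3510 ± 1847 on NCD and 1084 ± 297 on HFD (SD, n = 3 each), a 3.24-fold lower level (3.49-fold without the libraries whose Casp4 lay in the WT range, n = 2 each). The library labelled Casp11-/- NCD replicate 2 was the NCD library nearest to HFD. The genes of 7SL, an abundant small RNA, held 52.8% of its TPM, against 14.5% to 30.1% in the other NCD libraries analysed. The part of this in its low sum was not tested. In bulk RNA, fewer cells in S phase and less histone RNA per cell cannot be told apart.

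As a share of the TPM of protein-coding genes, a scale on which abundant small RNAs play no part, the sum was 1.46% and 2.06% in WT-NCD and 0.478%, 0.319% and 0.711% in WT-HFD. It was 1.49%, 0.880% and 0.685% in the libraries labelled Casp11-/- NCD and 0.402%, 0.453% and 0.591% in those labelled Casp11-/- HFD. On this scale the diets did not overlap within either genotype, but WT-HFD replicate 3 lay above the library labelled Casp11-/- NCD replicate 3. The means differed 3.50-fold in WT and 2.11-fold in the labelled Casp11-/- libraries (2.39-fold without those whose Casp4 lay in the WT range).

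**Figure D2:**
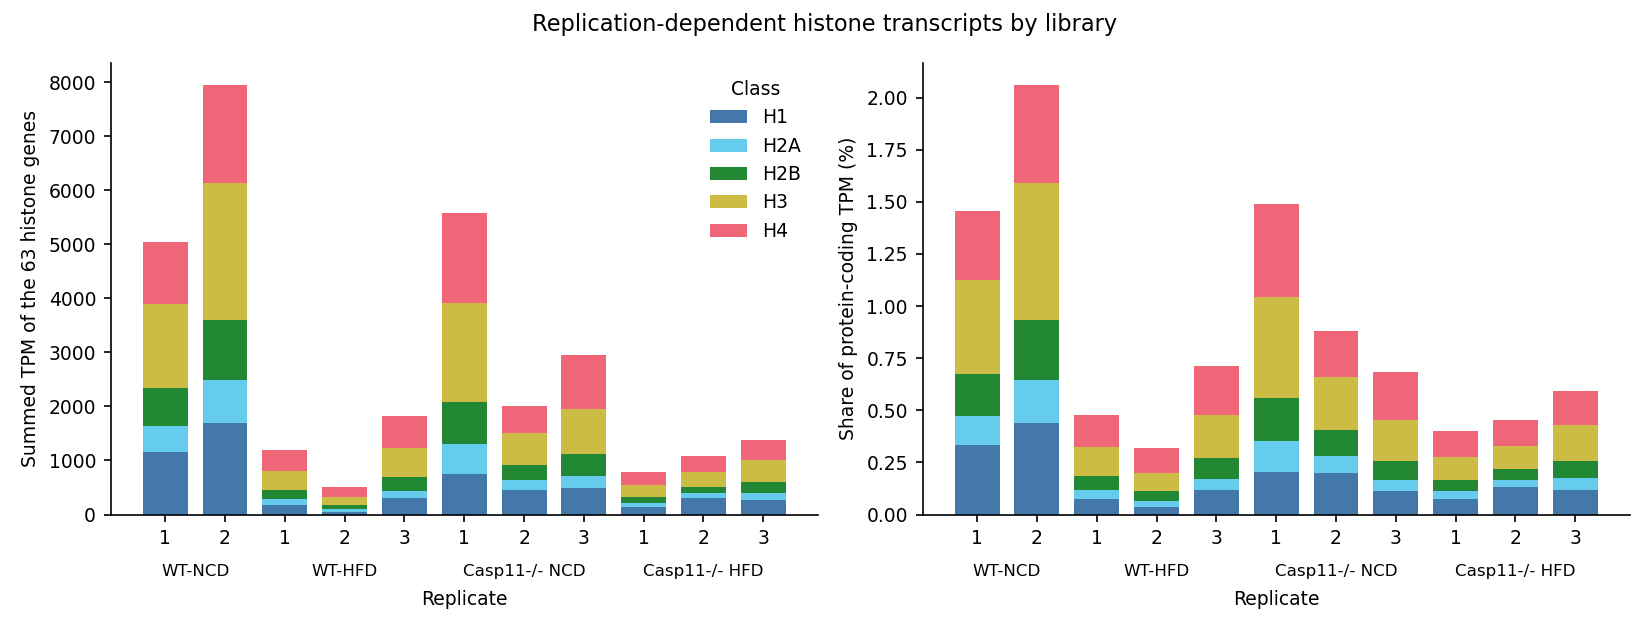
Summed TPM of the 63 genes (left) and their share of the protein-coding TPM in % (right) for each of 11 libraries, stacked by class, with replicate numbers and groups on the x axis. The HFD bars (510.1 to 1826 TPM) are below the NCD bars (2006 to 7959 TPM), while the right panel shows 1 HFD library (0.711%) just above the lowest NCD library (0.685%).

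In WT mice, 38 of the 61 members tested were lower on HFD and 0 were higher (limma, adjusted p under 0.05). Of all 17950 genes tested, 2.04% were called lower and 0.134% higher. The median log2 fold change was -2.48 over the members and -0.27 over all genes. All 5 H1 genes, 13 of 16 H2A genes, 7 of 16 H2B genes, 10 of 12 H3 genes and 3 of 12 H4 genes were called. For 59 of 61 members, each WT-HFD library lay below both WT-NCD libraries, as it did for 40.3% of all genes tested, H2ac18 and H2ac21 being the exceptions. The count rested on few libraries: 5 members were called when WT-NCD replicate 2 was left out (1.08% of all genes called lower) and 12 when WT-HFD replicate 2 was (1.02%). When it was any other library, 29 to 49 were called, against 1.54% to 5.78% of all genes. With WT-NCD replicate 3 included, limma called 0 members and 0.103% of all genes lower. Among genes above the floor in every library, the WT median was -2.46 over 54 members and -0.63 over all 10145 genes.

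The 10 members of smallest p in WT came from all classes but H4. The core histone gene H2ac13, with 10.7% of its windows unique, had the largest change. It was 34.8 and 53.1 TPM in WT-NCD, and in WT-HFD it was 2.54, 1.74 and 4.32 TPM, a log2 fold change of -3.57 (SE 0.61, adjusted p = 0.00080). The linker histone gene H1f3 fell from 308 and 441 TPM to 39.1, 12.5 and 73.4 TPM, a log2 fold change of -3.43 (SE 0.62, adjusted p = 0.0013). H1f2, the linker histone gene of highest mean, fell from 446 and 709 TPM to 67.9, 21 and 104 TPM (log2 fold change -3.38, SE 0.63, adjusted p = 0.0020). In each of these genes the groups were far apart, and WT-HFD replicate 2 was the lowest library. H2bc24, H3c6, H2ac11, H2bc8, H3c1, H2ac15 and H3c7 completed the list, with log2 fold changes from -2.97 to -3.20 and adjusted p from 0.0013 to 0.0033.

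In the labelled Casp11-/- mice, H2ac11 and H2bc11 were called lower on HFD and 0 members were called higher. Of all genes tested, 0.986% were called lower and 0.117% higher, and the 2 members are 3.28% of the 61. H2bc11 was 83.7, 24.3 and 34.03 TPM on NCD and 1.28, 7.32 and 14.0 TPM on HFD, with a log2 fold change of -2.68 (SE 0.60, adjusted p = 0.028). H2ac11 was 24.1, 7.28 and 4.67 TPM on NCD and 1.007, 1.92 and 1.88 TPM on HFD, the lowest value being the floor of the files (log2 fold change -2.04, SE 0.51, adjusted p = 0.047). These 2 genes lie head to head on chromosome 13, with the 248 bases printed above between them. The groups did not overlap in either gene. H2bc7, H4c18 and H2ac13 came next, with adjusted p of 0.053, 0.055 and 0.064.

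The median log2 fold change in the labelled Casp11-/- mice was -1.64 over the members and -0.51 over all genes. For 52 of 61 members the 3 HFD libraries lay below the 3 NCD libraries, against 16.4% of all genes. The number of calls changed with the libraries kept, for the members and for all genes alike. Without Casp11-/- NCD replicate 2, which had the lowest histone sum of the NCD libraries, 55 of 61 members were called lower, and so were 46.1% of all genes. The medians in that fit were -1.95 over the members and -0.81 over all genes. Without the labelled Casp11-/- libraries whose Casp4 lay in the WT range, 3 members were called (0.567% of all genes) with a median of -1.70, and 44 were called in WT (2.89%). No member was called (limma, 0 of 61) without Casp11-/- NCD replicate 1 or Casp11-/- HFD replicate 1, where 0.136% and 0.384% of all genes were called lower. Leaving out a library gave 1 call without Casp11-/- HFD replicate 2 or WT-HFD replicate 2, 2 without Casp11-/- NCD replicate 3 or WT-HFD replicate 1, 4 without either WT-NCD library and 5 without Casp11-/- HFD replicate 3 or WT-HFD replicate 3. In these 8 fits 0.431% to 1.37% of all genes were called lower.

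**Figure D3:**
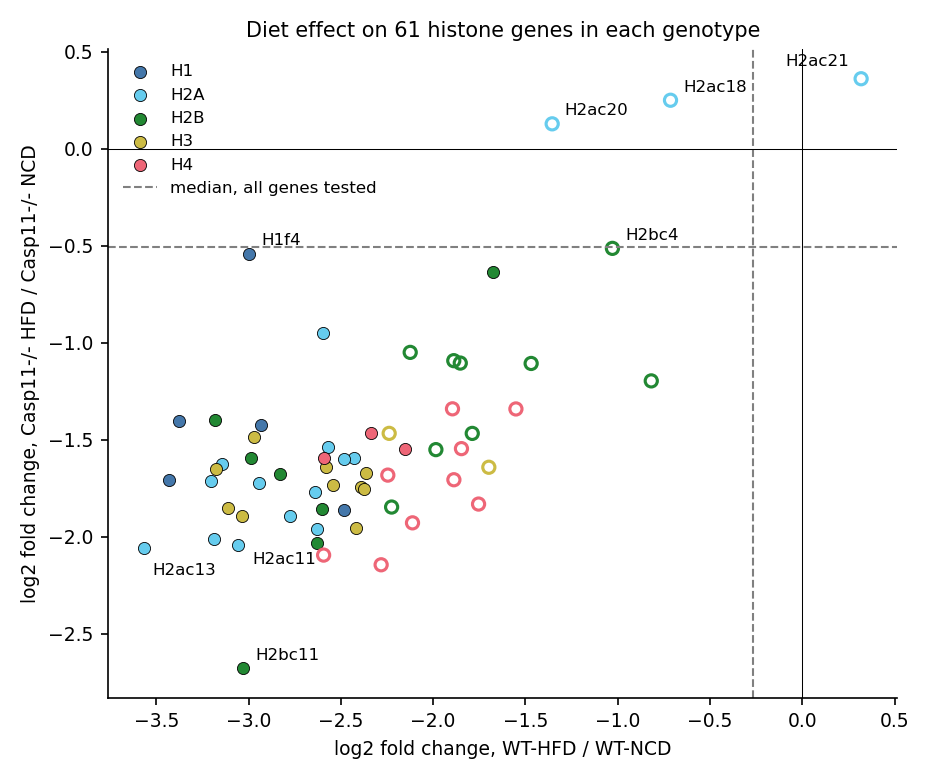
Log2 fold change of HFD against NCD in WT (x axis) and in the labelled Casp11-/- mice (y axis) for the 61 members tested, colored by class. Filled points were called in WT, and dashed lines mark the medians of all genes tested (-0.27 and -0.51). Most members lie below and left of both lines, and H2ac21, at 0.32 and 0.36, lies above and right of them.

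Over both genotypes, 57 of 61 members were lower on HFD and 0 were higher, against 17.3% and 1.07% of all genes tested. The median log2 fold change was -2.07 over the members and -0.39 over all genes. The calls covered 5 of 5 H1, 13 of 16 H2A, 15 of 16 H2B, 12 of 12 H3 and 12 of 12 H4 genes. For 28 of 61 members, every HFD library was below every NCD library, against 5.6% of all genes. H2ac13 had the smallest p (log2 fold change -2.81, SE 0.41, adjusted p = 6.51e-05), followed by H2ac11 (-2.55, SE 0.38, adjusted p = 8.33e-05). H2bc11, H1f3, H2ac23, H3c6, H3c7, H3c11, H2bc7 and H2bc24 had log2 fold changes from -2.29 to -2.85 and adjusted p from 0.000185 to 0.000355. The members called numbered 59 without Casp11-/- NCD replicate 2, where 45.8% of all genes were called lower, and 44 without WT-NCD replicate 2, where 2.96% were. Leaving out any other library gave 51 to 57 members beside 3.64% to 20.8% of all genes. There were 55 without the labelled Casp11-/- libraries whose Casp4 lay in the WT range (7.67% of all genes). With WT-NCD replicate 3 included, H2ac11 and H2ac13 were the 2 members called, against 0.513% of all genes. Genes at the floor in some libraries can fall less. Over the 10145 genes above it in every library, the median was -0.69 and 35.5% were called lower. For the 54 members in that fit the median was -2.07, with 51 called lower. In the labelled Casp11-/- mice its medians were -1.64 over the members and -0.76 over all genes.

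The 4 members not called over both genotypes, named after their values were seen, were H2ac18, H2ac20, H2ac21 and H2bc4. H2ac21 was 7.19 and 6.85 TPM in WT on NCD, 13.5, 7.80 and 6.86 TPM in WT on HFD, 6.16, 6.51 and 20.1 TPM in the libraries labelled Casp11-/- NCD, and 12.1, 11.7 and 13.4 TPM in those labelled Casp11-/- HFD. Its groups overlapped, the diets differed by 0.34 on the log2 scale (SE 0.37, adjusted p = 0.47), and it was the only member with a positive mean effect over both genotypes. After any of the 3 rescalings described below its effect was 0.94 to 1.05 and it was called higher. H2ac20, also on chromosome 3, was 9.76 and 18.2 TPM in WT-NCD, and in WT-HFD it was 5.21, 2.61 and 6.89 TPM, but the labelled Casp11-/- libraries had 7.33, 2.003 and 12.5 TPM on NCD and 7.99, 5.45 and 6.58 TPM on HFD. H2ac18 stayed between 1.007 and 4.46 TPM, close to the floor. H2bc4 was 10.8 and 11.7 TPM in WT on NCD, 7.12, 3.14 and 5.40 TPM in WT on HFD, 8.80, 7.08 and 11.2 TPM in the libraries labelled Casp11-/- NCD and 4.53, 7.11 and 6.40 TPM in those labelled Casp11-/- HFD (log2 fold change -0.77, SE 0.34, adjusted p = 0.11). All but H2bc4 are H2A genes of the small cluster on chromosome 3, where 7 of 10 members tested were called, beside 49 of 50 on chromosome 13.

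**Figure D4:**
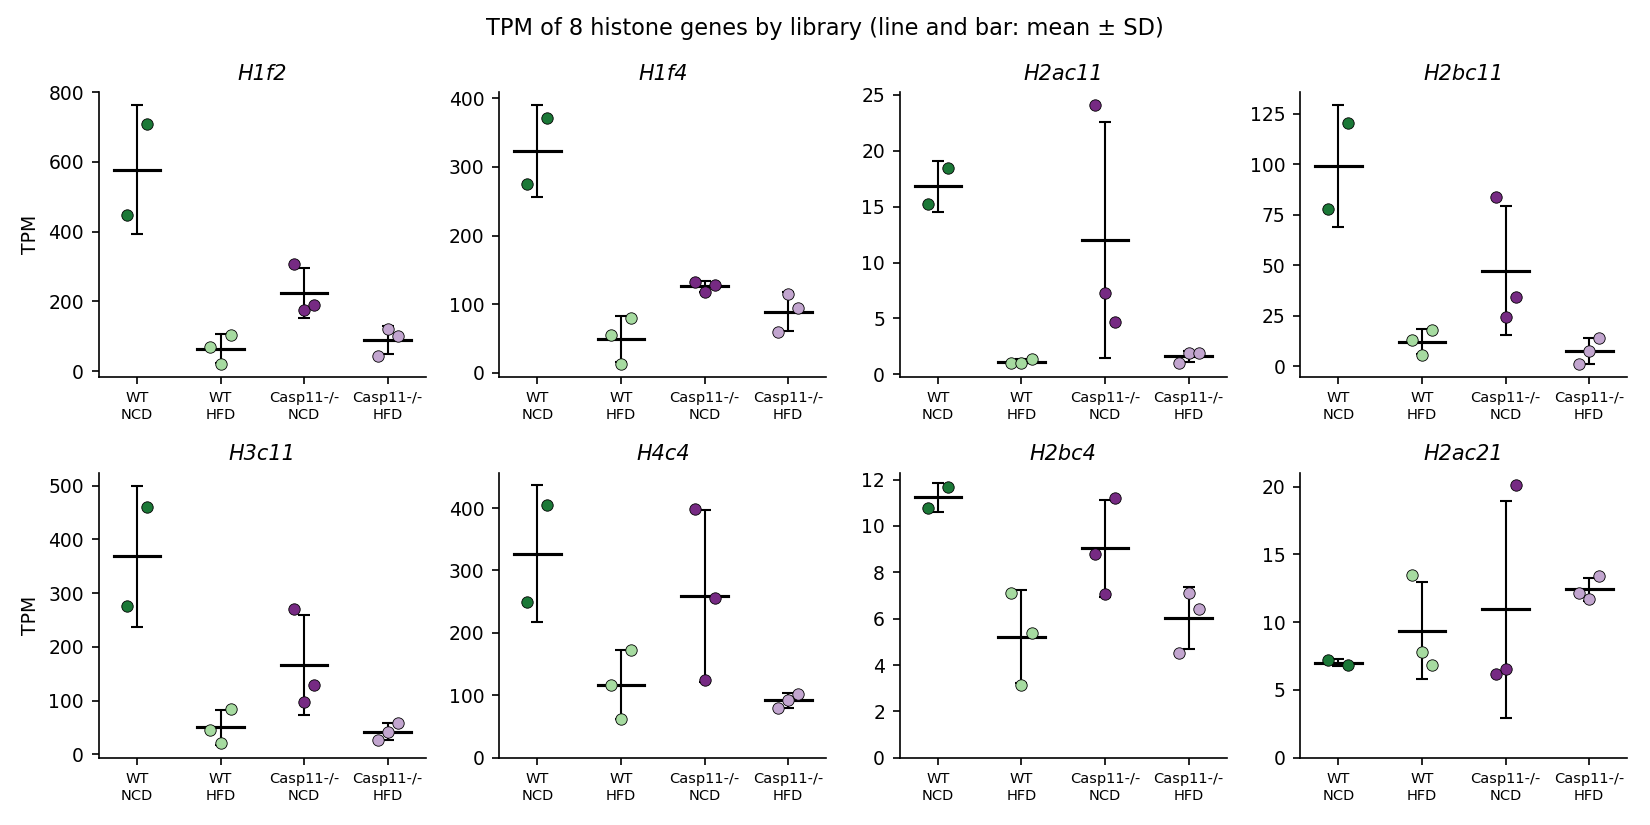
TPM (y axis) of 8 members in each of 11 libraries (points) by group (x axis), with the mean and SD of each group. The means of H1f2, H2ac11, H2bc11 and H3c11 are lower on HFD in both genotypes, H1f4 shows 118 to 132 TPM in the labelled Casp11-/- NCD libraries beside 276 and 371 TPM in WT-NCD, and H2ac21 shows no lower level on HFD.

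By class, the linker histones had the largest fold in WT. The summed TPM of the 5 H1 genes was 1152 and 1685 in WT-NCD and 183, 53.8 and 299 in WT-HFD, a 7.94-fold lower mean. In the labelled Casp11-/- mice it was 758.7, 454.9 and 481.4 on NCD and 143.6, 310.04 and 275 on HFD, a 2.33-fold lower mean (2.90-fold without the libraries whose Casp4 lay in the WT range). H1f4 had the smallest p for a difference of the diet effect between genotypes, which was not called. It was 276 and 371 TPM in WT-NCD, and in WT-HFD it was 54.6, 13.2 and 80.7 TPM, but the labelled Casp11-/- libraries had 132, 118 and 129 TPM on NCD and 59.2, 115 and 94.0 TPM on HFD. The effect of HFD on it was -3.00 on the log2 scale (SE 0.61, adjusted p = 0.0048) in WT and -0.54 (SE 0.55, adjusted p = 0.52) in the labelled Casp11-/- mice. Without the libraries whose Casp4 lay in the WT range, the latter was -0.73 (SE 0.70, adjusted p = 0.52). H1f1 and H1f5, whose windows are all unique, were also called in WT.

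The core histone classes had WT folds of 6.57 for H2A, 5.47 for H2B, 5.95 for H3 and 3.80 for H4. The matching folds in the labelled Casp11-/- mice were 3.33, 3.46, 3.67 and 3.41, and 3.58, 3.54, 3.87 and 3.46 without the libraries whose Casp4 lay in the WT range. H3 and H4, which form the tetramer at the heart of the nucleosome, were the most abundant classes together, with 29.2% and 29.8% of the histone TPM as the median of the 11 libraries. H1 held 18.2%, H2B 13.9% and H2A 9.43% by the same measure. In WT the H4 share was 22.7% and 23.0% on NCD and 31.9%, 37.0% and 32.9% on HFD, with no overlap. The H1 share was apart the other way, with 22.8% and 21.2% on NCD and 15.3%, 10.6% and 16.4% on HFD. The diets overlapped in both shares in the labelled Casp11-/- libraries, H4 being at 24.9% to 33.7% on NCD and 27.5% to 31.1% on HFD and H1 at 13.6% to 22.7% and 18.2% to 28.7%. These shares were not tested.

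Among H2A genes, the 3 of highest mean were H2ac19, H2ac23 and H2ac15. H2ac19 was 50.04 and 88.1 TPM in WT-NCD, and in WT-HFD it was 9.54, 6.15 and 18.4 TPM (log2 fold change -2.57, SE 0.57, adjusted p = 0.011), with no window unique to it. H2ac15, with 73.0% of its windows unique, was 51.0 and 80.3 TPM and 6.36, 2.28 and 13.6 TPM in the same groups (log2 fold change -3.20, SE 0.63, adjusted p = 0.0033). H2ac23 followed with -3.19. Both H2ac19 and H2ac15 were separated by diet in WT with no overlap.

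Among H2B genes, H2bc8, H2bc15 and H2bc11 had the highest means. H2bc8 was 176 and 297 TPM in WT on NCD, 31.9, 13.2 and 51.4 TPM in WT on HFD, 178, 78.5 and 89.7 TPM in the libraries labelled Casp11-/- NCD and 29.3, 30.7 and 47.6 TPM in those labelled Casp11-/- HFD. Its lowest NCD library stood above its highest HFD library. H2bc15 had log2 fold changes of -2.60 in WT (adjusted p = 0.020) and -1.86 in the labelled Casp11-/- mice (adjusted p = 0.094). H2bc11 was 77.8 and 121 TPM in WT-NCD, and in WT-HFD it was 13.03, 5.54 and 17.8 TPM (log2 fold change -3.03, SE 0.68, adjusted p = 0.011).

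Among H3 genes, H3c11, H3c6 and H3c10 led. H3c11 was 276 and 461 TPM in WT on NCD, 45.4, 20.01 and 84.4 TPM in WT on HFD, 271, 97.2 and 130 TPM in the libraries labelled Casp11-/- NCD and 26.5, 40.7 and 58.3 TPM in those labelled Casp11-/- HFD. All HFD values were below all NCD values. H3c6 and H3c10 had log2 fold changes of -3.18 (adjusted p = 0.0018) and -2.54 (adjusted p = 0.028) in WT.

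Among H4 genes, H4c4, H4c14 and H4c6 led. H4c4, with 96.3% of its windows unique, was 249 and 405 TPM in WT on NCD, 116, 62.2 and 173 TPM in WT on HFD, 399, 124 and 255.8 TPM in the libraries labelled Casp11-/- NCD and 79.8, 93.1 and 103 TPM in those labelled Casp11-/- HFD. Its diets did not overlap within a genotype, but its log2 fold changes of -1.55 (SE 0.58) in WT and -1.34 (SE 0.52) in the labelled Casp11-/- mice were not called (adjusted p = 0.22 and 0.14). H4c14 and H4c6 were not called in WT either, with -2.25 (adjusted p = 0.071) and -2.11 (adjusted p = 0.11).

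Between genotypes, no member was called. On NCD, 0 of 61 members were called by limma, and 0.0557% of all genes were called lower and 0 higher. An unadjusted p under 0.05 was seen for 13 of 61 members and 3.24% of all genes. That count was 0 without WT-NCD replicate 2 or Casp11-/- NCD replicate 2, where 1.61% and 10.1% of all genes had such a p, 36 without Casp11-/- NCD replicate 1 (3.85%) and 5 without Casp11-/- NCD replicate 3 (3.21%). The median log2 fold change of the labelled Casp11-/- libraries against WT was -0.97 over the members and 0.08 over all genes, and 59 of 61 members had a lower mean. Without the libraries whose Casp4 lay in the WT range, it was -0.88 over the members and -0.15 over all genes. For 17 of 61 members the 3 labelled Casp11-/- libraries lay below both WT libraries, against 2.64% of all genes. The members of smallest p were H1f5, H4c17 and H2ac6. H1f5 was 83.6 and 117 TPM in WT-NCD and 71.6, 25.7 and 24.0 TPM in the libraries labelled Casp11-/- NCD, a log2 fold change of -1.45 (SE 0.61). H4c17 had -1.33 (SE 0.56) and H2ac6 -1.43 (SE 0.62), and the adjusted p of all 3 was 1. Without the libraries whose Casp4 lay in the WT range, the changes were -1.18 for H1f5, -1.56 for H4c17 and -1.17 for H2ac6.

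On HFD, 0 of 61 members and 0 of all genes were called, and 0 members had an unadjusted p under 0.05. For 0 of 61 members the labelled Casp11-/- libraries lay below the WT libraries, against 3.11% of all genes. The median log2 fold change between genotypes was -0.06 over the members and -0.04 over all genes, and -0.05 and -0.01 without the libraries whose Casp4 lay in the WT range. H1f4 (1.12, SE 0.55), H2bc11 (-0.87, SE 0.60) and H2bc3 (-0.54, SE 0.48) had the smallest p, with an adjusted p of 1.

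The difference of the diet effect between genotypes was called for 0 members, and for 0.00557% of all genes, 1 gene in all. An unadjusted p under 0.05 was seen for 5 of 61 members and 2.60% of all genes. The diet effect was less negative in the labelled Casp11-/- mice for 59 of 61 members, with a median difference of 0.81 on the log2 scale beside -0.12 over all genes. It was so for 47 members without WT-HFD replicate 2 (median 0.29), 48 without Casp11-/- NCD replicate 2 (0.47), 52 without WT-NCD replicate 2 (0.46) and 45 with WT-NCD replicate 3 included (0.31). Without the libraries whose Casp4 lay in the WT range it was so for 59 members, with medians of 0.74 over the members and 0.13 over all genes. H1f4 had the smallest p (difference 2.46, SE 0.82, adjusted p = 0.9998), followed by H1f2 (1.98, SE 0.85) and H2bc24 (1.78, SE 0.77). The 2 diet effects share no library, but that of WT rests on 2 NCD libraries.

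TPM is a share of a fixed total, and small RNAs took very different parts of it. The U3 small nucleolar RNA genes held 1.24% to 4.84% of the TPM in the NCD libraries and 25.8% to 58.5% in the HFD libraries. The 7SL genes held 14.5% to 52.8% and 12.4% to 35.8%, and protein-coding genes held 22.3% to 42.4% and 15.7% to 25.2%. The members were therefore also compared after the protein-coding genes were rescaled to a common total. On that scale 11 of 60 members were called lower in WT and 0 higher, against 0.299% and 0.509% of 12366 genes. The genes called lower in WT numbered 37 in all, so members were 11 of 37. In the labelled Casp11-/- mice H2bc7 was called (adjusted p = 0.048), against 0.873% of genes called lower and 2.68% higher. Without the libraries whose Casp4 lay in the WT range H2bc7 was not called (adjusted p = 0.14), and H2ac11 and H2ac13 were, against 0.157% of 12118 genes called lower. Over both genotypes 51 of 60 members were lower and 1 higher (H2ac21), against 6.25% and 7.45%. The diets did not overlap, with HFD lower, for 56 of 60 members in WT (19.8% of all genes), 32 of 60 in the labelled Casp11-/- mice (14.5%) and 13 of 60 over both genotypes (4.25%).

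Rescaling moved the median of all genes. In WT it was -0.27 as deposited, 0.08 after protein-coding rescaling, 0.28 when the most abundant 1% of genes was dropped and 0.27 with median-of-ratios scaling. Relative to that median, the members' median in WT was -2.21 as deposited and -1.85, -2.10 and -2.09 under the 3 scalings. In the labelled Casp11-/- mice it was -1.13 as deposited and -0.90, -1.04 and -1.002. At least 56 members had a lower mean on HFD in every diet comparison under all 4 scalings, and H2ac21 had a higher mean in all of them. With protein-coding rescaling, values at the floor were scaled too and ended higher in libraries with a lower protein-coding share. The chaperone gene Chaf1a, at the floor in every HFD library, went from -0.28 to 0.14 in WT. The part of this in the rescaled medians of all genes, and in the values relative to them, was not tested.

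Members with unique sequence and near-identical copies were also set apart. Of all genes tested, 2.04% were called lower in WT and 17.3% over both genotypes. Of the 8 members tested with at least 90% of their windows unique, 4 were called lower in WT and 7 over both genotypes, with median log2 fold changes of -2.36 and -2.07. Of the 6 members under 10%, all 6 were called in both comparisons, with medians of -2.56 and -2.10. The set of unique genes was added after the data were seen. In it, the models of H1f2, H1f3, H4c4 and H4c14 run 770 to 4884 bases past the stem-loop. Their shares thus include bases beyond the usual end of a histone mRNA.

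H2A and H2B genes often lie head to head with a short stretch between their starts. In all, 9 such neighbours were found within 500 bases by RefSeq, 8 of them with both genes tested. The log2 fold changes of the partners over both genotypes differed by 0.045 for H2ac8 and H2bc8 and by 0.049 for H2ac12 and H2bc12. They differed by 0.23 for H2ac15 and H2bc15, by 0.29 for H2bc7 and H2ac7 and by 0.30 for H2ac11 and H2bc11. The widest gap was 1.45, between H2bc23 (-1.16) and H2ac23 (-2.60), followed by 1.18 between H2bc13 and H2ac13. H2bc23 was at the floor in WT-HFD replicates 1 and 2 and the library labelled Casp11-/- HFD replicate 1, which caps its fall. Only 3.92% of its windows were unique, and 6.90% of those of H2ac23.

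The other genes that serve histone supply moved less by the median of each list. These lists were written from general knowledge. Some of their genes lay near the floor of 1.007 TPM, which caps how far they can fall. The histone chaperone gene Chaf1a was 1.24 and 1.64 TPM in WT-NCD and at the floor in every HFD library (log2 fold change -0.28). The medians of lists and members are thus not on equal terms. The share of all genes called lower over both genotypes was 17.3% (1.07% higher, median -0.39). After protein-coding rescaling it was 6.25% (7.45% higher, median -0.05). Over both genotypes 4 of 8 replacement histone genes tested were lower on HFD and 0 higher, with a median log2 fold change of -1.04. They were H3f3a (-1.41, adjusted p = 0.023), H3f3b (-1.19, adjusted p = 0.030), Macroh2a1 (-1.28, adjusted p = 0.028) and H2aj (-1.31, adjusted p = 0.030). H3f3a was 447 and 473 TPM in WT on NCD, 157, 125 and 234 TPM in WT on HFD, 599.5, 184 and 567 TPM in the libraries labelled Casp11-/- NCD and 116, 183 and 171 TPM in those labelled Casp11-/- HFD. None of the 4 was called after protein-coding rescaling (median of the list -0.42). The summed TPM of the members over that of the 11 replacement histone genes was 6.21 and 8.37 in WT-NCD and 3.83, 2.19 and 3.997 in WT-HFD. It was 5.6, 5.72 and 2.99 in the libraries labelled Casp11-/- NCD and 3.004, 2.81 and 3.48 in those labelled Casp11-/- HFD, where the diets overlapped.

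Of 16 genes of histone mRNA synthesis and 3′ end processing, 5 were lower over both genotypes and 0 higher (median -0.77), beside 17.3% of all genes. Sympk, a scaffold of the cleavage complex, was called on both scales (-1.43, adjusted p = 0.016, and -0.81, adjusted p = 0.033, after rescaling). After rescaling it was the 1 gene of this list called lower, which is near the 6.25% of all genes. Mif4gd, which acts in histone mRNA translation, Srrt, Upf1 and Cpsf3 were the other 4, and none of these was called after rescaling. Slbp, which binds the stem-loop, was 14.3 and 17.4 TPM in WT on NCD, 8.44, 5.42 and 10.97 TPM in WT on HFD, 21.2, 6.79 and 20.5 TPM in the libraries labelled Casp11-/- NCD and 6.92, 8.07 and 10.3 TPM in those labelled Casp11-/- HFD (log2 fold change -0.82, SE 0.37, adjusted p = 0.11). Npat, a coactivator of histone transcription, had -0.44 (adjusted p = 0.36). Of 18 histone chaperones, 7 were lower and 0 higher (median -0.84). Tonsl (-1.10, adjusted p = 0.0073), Cabin1 (-1.39, adjusted p = 0.022), Ssrp1 (-1.20, adjusted p = 0.028), Nap1l4 and Hira had the smallest p, whereas Atrx was at 0.07 (adjusted p = 0.89) and Rbbp4 at -0.97 (adjusted p = 0.051). After rescaling Tonsl and Cabin1 were called lower and 0 chaperones higher (median -0.26).

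Of 30 other S phase genes, 16 were lower over both genotypes and 0 higher, with a median of -0.999 beside -2.07 for the members. Of all genes, 17.3% were called lower, with a median of -0.39, and 6.25% after rescaling. The licensing factor Cdt1 (-1.71, adjusted p = 0.0054), the polymerase subunit Pold1 (-1.65, adjusted p = 0.0076), the cyclin Ccne1, the maintenance methyltransferase Dnmt1 and E2f2 had the smallest p, and all 5 were among those called after rescaling, where 5 of the list were lower (median -0.42). Pcna, the polymerase clamp, had -0.98 (adjusted p = 0.055). Of 12 mitosis genes, Ccnb2 was called (-1.20, adjusted p = 0.026), with a median of -0.66, and 0 were called after rescaling. That 1 of 12 is not above the share of all genes. Mki67, a marker of dividing cells, was 16.6 and 13.5 TPM in WT on NCD, 10.4, 4.30 and 15.3 TPM in WT on HFD, 15.9, 6.50 and 20.04 TPM in the libraries labelled Casp11-/- NCD and 5.78, 8.91 and 9.49 TPM in those labelled Casp11-/- HFD (log2 fold change -0.66, adjusted p = 0.20). Within a genotype no gene of these 5 lists was called. The summed TPM of the members over that of the 31 S phase genes was 18.2 and 24.1 in WT-NCD and 9.27, 5.75 and 10.6 in WT-HFD. It was 14.5, 15.5 and 9.04 in the libraries labelled Casp11-/- NCD and 7.14, 11.2 and 9.73 in those labelled Casp11-/- HFD. The diets were apart in WT, whereas 1 library labelled Casp11-/- NCD, replicate 3, fell within the range of HFD.

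**Figure D5:**
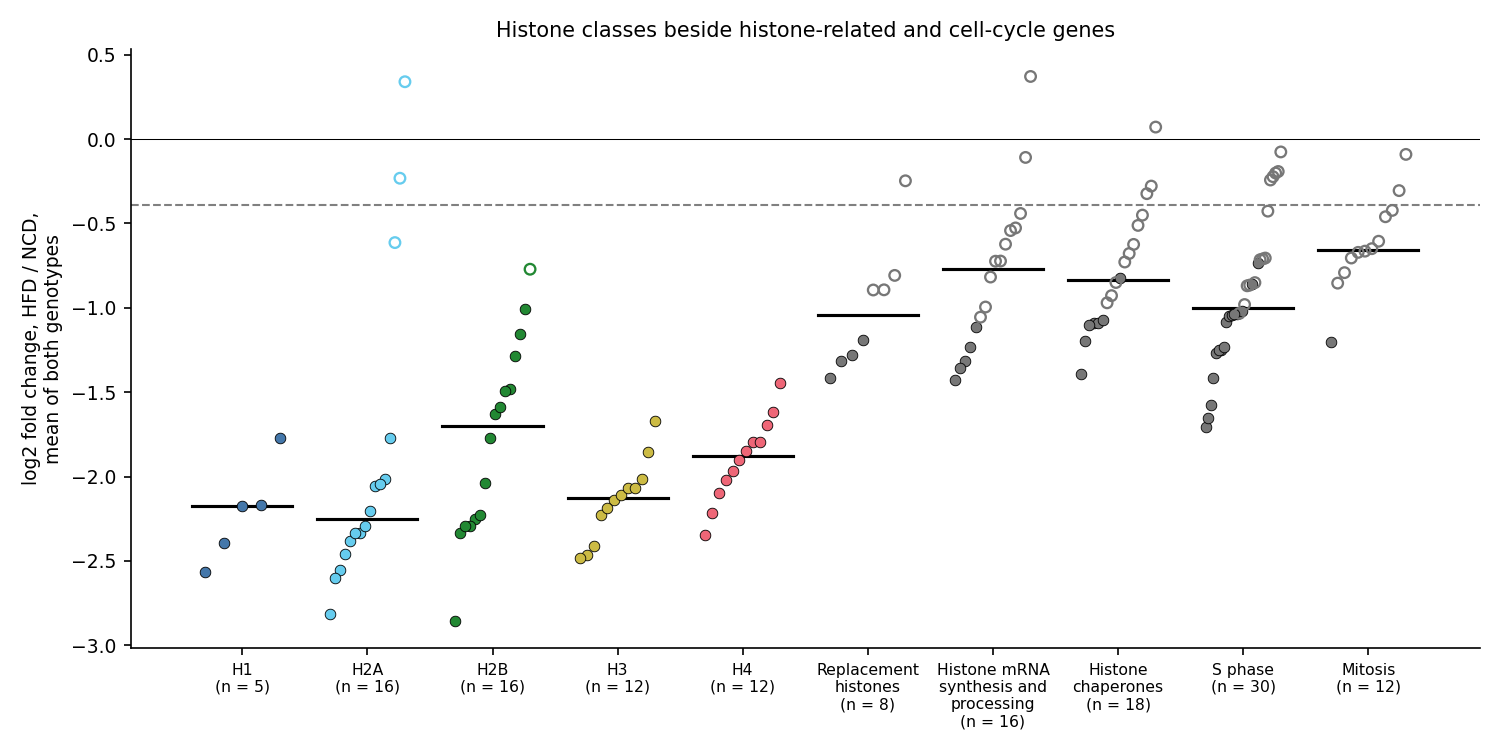
Log2 fold change of HFD against NCD as the mean of both genotypes (y axis) for each gene of the 5 histone classes and of 5 related lists (x axis, number of genes tested in brackets). Filled points were called, black bars are medians and the dashed line is the median of all genes (-0.39). The class medians lie between -1.70 and -2.25 and those of the other lists between -0.66 and -1.04.

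Cell type markers moved with diet in the same libraries. Of all genes tested over both genotypes, 17.3% were called lower on HFD and 1.07% higher. B cell markers were lower on HFD over both genotypes in 9 of 9 genes tested, and their summed TPM was 484.9 to 2047 in NCD and 151 to 343 in HFD. Plasma cell markers were lower in 7 of 7 (347 to 3179 and 107 to 287) and NK cell markers in 5 of 7 (189 to 388 and 61.6 to 110). T cell markers were lower in 5 of 9 (156 to 640.5 and 95.2 to 276). Erythroid markers were lower in 5 of 5 (868 to 18032 and 282 to 767), the highest sum being in the library labelled Casp11-/- NCD replicate 3. Kupffer cell markers were higher in 9 of 10 (50.1 to 144 in NCD and 268 to 889 in HFD) and sinusoidal endothelial markers in 4 of 7. Neutrophil markers were lower in 2 of 10 and stellate cell markers in 1 of 6, near the share of all genes. The neutrophil sum was 4165 TPM in the library labelled Casp11-/- HFD replicate 2 and 112 to 984 TPM in the other libraries. None of the monocyte, dendritic cell or hepatocyte markers was called. Hepatocyte RNA was present in each library, with Alb between 4445 and 18318 TPM. After protein-coding rescaling 6.25% of the genes tested were called lower and 7.45% higher. The B cell markers were then lower in 9 of 9, plasma cell markers in 6 of 7 and erythroid markers in 4 of 5. NK cell markers were lower in 3 of 7 and neutrophil markers in 1 of 10. On that scale Kupffer cell markers were higher in 10, sinusoidal endothelial markers in 6, and stellate and dendritic cell markers in 2 each, and none of the T cell, monocyte or hepatocyte markers was called. Of all these markers, Pdgfrb (stellate) and Klf1 (erythroid) were at the floor in all 11 libraries. The part of these shifts in cell makeup in the lower histone levels was not tested.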

How the data were processed

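Total RNA of the liver immune cell fraction was made into random-primed stranded libraries and sequenced as single-end reads of 75 bases, which the authors mapped to mm10 with STAR. The deposited score values are TPM computed by the authors, not on a log scale and raised to a floor of 1.007. They were kept as given. The authors derived the TPM from the alignments with Qlucore Omics Explorer. Its treatment of reads shared by copies is not given in the sources used here. A nominal number of reads per sample is stated, but the depth of each library is unknown. In each file, 6 blank rows were dropped.

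Log2(TPM + 1) was fitted with limma 3.58.1 (R 4.3.3), with 4 groups sharing a spread with a trend on the mean, over genes that 3 or more of the 11 libraries had above the floor. Tests were two-sided, with Benjamini-Hochberg adjustment over 17950 genes and calls at 0.05. H2ac1 and H2bc1 failed the filter, so 61 members were tested. The fit was tested on simulated data. Tables and plots used Python 3.11.15, pandas 2.3.3, numpy 2.4.6 and matplotlib 3.10.9. No pair of libraries was identical (0 pairs).

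Named members are the 3 of highest mean TPM in each class and, per comparison, those called (10 of smallest p per direction) or else the 3 of smallest p. From the histone and cell cycle lists, called genes (5 of smallest p per direction), the 2 of highest mean and Slbp, Npat and Mki67 are named. The members and lists were chosen with earlier results of these data known. Alternatives were all 12 libraries, other pseudocounts, filters and scalings, a spread from the groups compared, a replicate block and each library left out. The fits without the libraries with Casp4 in the WT range, with and without protein-coding rescaling, were added after the data were seen. The heading of the library labelled Casp11-/- HFD replicate 2 abbreviates the genotype unlike the others.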

Additional observations from a re-analysis of the deposited data

Results flagged for a closer look

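H2ac1 and H2bc1, neighbours on chromosome 13 known for expression in testis, were at or within 0.1 TPM of the floor in all 11 libraries analysed. In WT-NCD replicate 3, which entered no comparison, they were at 27.9 and 30.8 TPM. Both values are far above the other WT-NCD libraries. The sum over the 63 members in that library was 1568 TPM, within the HFD range.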

How the results depend on the processing

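The members' median log2 fold change stayed negative in the 3 diet comparisons under every alternative, and leaving out each library gave -2.82 to -2.03 in WT, -1.95 to -1.19 in the labelled Casp11-/- mice and -2.28 to -1.85 over both. It moved by more than the spread between replicates (0.68) to -1.77 in WT with protein-coding rescaling, and to -0.84 in the labelled Casp11-/- mice and -1.31 over both with median of ratios. Leaving out each library gave -1.38 to -0.61 for the genotypes on NCD, -0.56 to 0.26 on HFD and 0.29 to 1.2 for the difference of the diet effects.

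Members called in WT (38, beside 2.04% of all genes called lower) became 0 with all 12 libraries (0.103%) and 1 with no filter (0.388%). The rescalings gave 11 with protein-coding genes (0.299%), 20 with removal of the top 1% (1.26%) and 22 with median of ratios (1.44%). A spread from the groups compared gave 24 (2.64%). Leaving out each library gave 5 to 49, beside 1.02% to 5.78% of all genes. In the labelled Casp11-/- mice (2, beside 0.986%) they became 0 with all 12 libraries (0%) or no filter (0.00467%). They were also 0 with removal of the top 1% (0.63%) or median of ratios (0.674%). They became 1 with protein-coding rescaling (0.873%) or the spread of the groups compared (0.925%). Pseudocounts of 0.1 and 0.01 gave 6 and 8 (1.48% and 1.63%). With genes above the floor in every library, 20 of 54 were called (4.59%). Leaving out each library gave 0 to 55, beside 0.136% to 46.1% of all genes. Over both genotypes (57, beside 17.3%) they became 2 with all 12 libraries (0.513%), and 44 to 59 without each library (2.96% to 45.8%). The genotype comparisons and the difference of the diet effects had 0 in every fit run. With protein-coding rescaling and without the libraries whose Casp4 lay in the WT range, 21 of 60 were called in WT (median -1.77), beside 0.602% of genes. The summed TPM of the libraries labelled Casp11-/- HFD became 1389 with removal of the top 1% and 1413 with median of ratios. The cause of these shifts was not tested.

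With the replicate block, 33 members were called in the labelled Casp11-/- mice, 53 in WT and 58 over both genotypes, while the share of all genes called lower rose to 5.97%, 6.04% and 35.6%. Same numbers were not taken as pairs, since nothing states a pairing. Of 15 same-numbered pairs of libraries, 8 had a correlation of deviations over 0.1, and 6 of 11 libraries were closest to one of their own number. These values cannot decide whether numbers mark pairs, because deviations within such small groups are tied to each other. No call reversed. The depth of each library is not given, so counting error cannot be separated.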

Other observations

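H4f16, an H4 gene whose symbol lies outside the rule, was 43.1 and 80.2 TPM in WT-NCD and 21.1, 8.86 and 16.99 TPM in WT-HFD. It was 71.3, 20.9 and 33.4 TPM in the libraries labelled Casp11-/- NCD and 7.62, 8.81 and 21.3 TPM in those labelled Casp11-/- HFD. Over both genotypes it was lower on HFD by 1.77 on the log2 scale (SE 0.40, limma, adjusted p = 0.0061), and 2 HFD libraries (21.1 and 21.3 TPM) lay above the lowest NCD library (20.9 TPM).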
